A study of Mus musculus with 6 samples.

Results

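The major urinary protein (Mup) genes were examined as a cluster in 6 bulk RNA-seq libraries of mouse liver. Members were the rows of the count table named Mup followed by a number, or Mup-ps followed by a number, on chromosome 4. Such a name was carried by 48 of the table's 54532 genes, and 47 of them, 21 protein-coding genes and 26 pseudogenes, lay on chromosome 4 between 59956804 and 62150863 (mm10). The remaining row, Mup-ps22, lies on chromosome 11 and was left out. The animals were male mice, 3 labelled Trem2 KO (replicates 4, 5 and 6) and 3 labelled WT (replicates 1, 2 and 3), described as littermates, and all 6 received a high-fat diet for 8 weeks from 8 weeks of age. Trem2 is a lipid-sensing receptor of macrophages. The strain, the deleted part of Trem2 and whether each library came from a separate mouse are not given in the sources used here, so the spread that p-values rest on may be technical.

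Major urinary proteins are small secreted lipocalins, barrel-shaped carriers of small hydrophobic molecules. In mice they are made mainly by hepatocytes, pass through the blood into urine, and carry and act as male scent signals. Their transcription in liver is male-biased because it depends on the pulsed growth hormone secretion of males, which acts through the transcription factor STAT5B, and it also responds to androgens, thyroid hormone and glucocorticoids.

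Libraries held between 11591021 and 19653758 counts in the KO-labelled group and between 13866345 and 20399361 counts in the WT-labelled group. Trem2 had 9, 6 and 5 counts in KO-labelled replicates 4, 5 and 6, against 7, 26 and 26 counts in WT-labelled replicates 1, 2 and 3. At 0.436 CPM (counts scaled to library size with TMM factors) the library labelled WT replicate 1 lay within the KO-labelled range of 0.278 to 0.817 CPM. Directions are therefore given between libraries as labelled, and the main results are also given without WT replicate 1. The title of that library, ML1_N, is the only one with a suffix, and the titles do not say what it means. The libraries bore the signature of liver, with albumin at 53133 ± 2567 CPM in KO-labelled and 61042 ± 11428 CPM in WT-labelled livers (SD, n = 3 each). KO replicate 5 also held 125, 122 and 64 counts of the adipocyte genes Adipoq, Plin1 and Lep, each of which had between 0 and 5 counts in the other libraries. The 4 adipocyte markers, the fourth being Cfd, summed to between 37.8 and 72.6 CPM in KO-labelled and between 5.30 and 59.7 CPM in WT-labelled livers. The part of the adipocyte RNA in the Mup values of KO replicate 5 was not tested.

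The members fall into near-identical copies and a few diverged genes. The 15 protein-coding members Mup1, Mup2 and Mup7 through Mup19, together with Gm21320, a row that GENCODE release M21 names Mup22, had coding sequences between 98.2% and 99.8% identical over all 120 pairs. Mup3, Mup4, Mup5, Mup6, Mup20 and Mup21 were at most 91.3% identical to any gene of that group. The coding stretch below is shown because short reads tell the genes apart only where their bases differ. It is the 75-base stretch within an exon, here exon 2, where the genes shown differ most from Mup7, read 5′ to 3′ on the minus strand of mm10, with capitals for each base that differs from Mup7.
Mup7: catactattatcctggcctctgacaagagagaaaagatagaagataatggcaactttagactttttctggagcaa
Mup12: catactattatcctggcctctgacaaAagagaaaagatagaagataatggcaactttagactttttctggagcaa
Mup17: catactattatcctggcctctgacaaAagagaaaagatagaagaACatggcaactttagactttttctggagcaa
Mup19: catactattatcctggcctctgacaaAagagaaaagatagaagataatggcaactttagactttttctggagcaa
Mup20: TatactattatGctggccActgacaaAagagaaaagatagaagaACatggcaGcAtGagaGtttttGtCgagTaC
Mup4: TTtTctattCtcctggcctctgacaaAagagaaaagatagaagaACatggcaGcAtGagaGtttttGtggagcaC
Mup21: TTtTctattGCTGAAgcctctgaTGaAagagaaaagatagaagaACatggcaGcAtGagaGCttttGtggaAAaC
Mup3: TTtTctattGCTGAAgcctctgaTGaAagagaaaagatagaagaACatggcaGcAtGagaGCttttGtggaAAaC
These stretches lie at chr4:60069777-60069851 for Mup7, chr4:60740692-60740766 for Mup12, chr4:61595237-61595311 for Mup17, chr4:61781635-61781709 for Mup19, chr4:62053524-62053598 for Mup20, chr4:59960083-59960157 for Mup4, chr4:62150239-62150313 for Mup21 and chr4:62086844-62086918 for Mup3. Mup12 and Mup19 differed from Mup7 at 1 base, while Mup20 differed at 14 and Mup3 and Mup21 at 23. Mup12 and Mup19 were the same over these 75 bases, as were Mup3 and Mup21.

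The share of a gene's sequence that is its own was measured with windows of 100 bases along its annotated transcripts. Windows found in no other gene's transcript made up 97.8% for Mup3, 95.5% for Mup21, 61.2% for Mup20 and all of those for Mup4 (100%). For the near-identical copies the share was 44.3% in Mup1, 40.6% in Mup17, 23.9% in Mup7, 22.5% in Mup12 and 17.6% in Mup16. Mup19 and Gm21320 had none (0%) at 100 bases. The share depends on the window, with 49.5% for Mup20 and 21.9% for Mup17 at 50 bases, and 68.9% for Mup20 and 59.6% for Mup17 at 150 bases. Read length and the treatment of reads that match several places are not given in the sources used here, so counts of the near-identical copies may hold reads of another copy, or lack their own. Windows were compared with annotated transcripts only, not with the whole genome.

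The start regions of the genes are also alike where a promoter was listed. Whether this bears on the fitted directions was not tested. Of the 21 protein-coding members 14 had a promoter in the RefSeq table (GRCm38.p6, 250 bases before to 50 after the start). Below are 60 bases, 5′ to 3′ on the minus strand, around the place that aligns with the TATAAA of Mup4, which is in capitals.
Mup4: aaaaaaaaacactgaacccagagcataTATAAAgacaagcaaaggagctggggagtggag
Mup17: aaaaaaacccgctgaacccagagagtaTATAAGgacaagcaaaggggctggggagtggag
Mup3: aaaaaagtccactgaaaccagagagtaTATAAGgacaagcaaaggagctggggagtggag
They lie at chr4:59960662-59960721, chr4:61595823-61595882 and chr4:62087294-62087353. The capitals read TATAAG in Mup17 and Mup3, whose promoters were 87.6% identical over 251 aligned bases. They begin 27, 23 and 9 bases before the annotated start in Mup4, Mup17 and Mup3, so the windows are not placed alike. The window of Mup7 ends before this place, which was therefore not searched in that gene. The motif TATAAA, on either strand, occurred in 2 of the 14 windows, those of Mup4 and Mup6, and in 13.6% of all 32851 promoter windows. TTCNNNGAA, the STAT5 consensus, occurred in 0 of the 14 and in 8.3% of all windows, which says only that these letters are not in the windows searched.

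The sum of all Mup reads was lower on average in KO-labelled livers, with overlap of the groups. The 47 members took 0.745%, 1.92% and 0.909% of all counts in KO-labelled replicates 4, 5 and 6, against 5.24%, 3.11% and 1.66% in WT-labelled replicates 1, 2 and 3. KO replicate 5 lay above WT replicate 3, and WT replicate 1 stood far above every other library. In CPM the sum was 7840, 17502 and 9506 in the KO-labelled livers and 59877, 27646 and 16500 in the WT-labelled livers. The means were 11616 ± 5165 CPM in KO-labelled and 34674 ± 22526 CPM in WT-labelled livers (SD, n = 3 each), and the fitted log2 fold change of KO over WT was −1.58 (SE 0.55). Without WT replicate 1 it was −0.93 (SE 0.45), and without KO replicate 5 it was −2.01 (SE 0.59). The plot of cluster reads by library shows this spread.

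**Figure D1:**
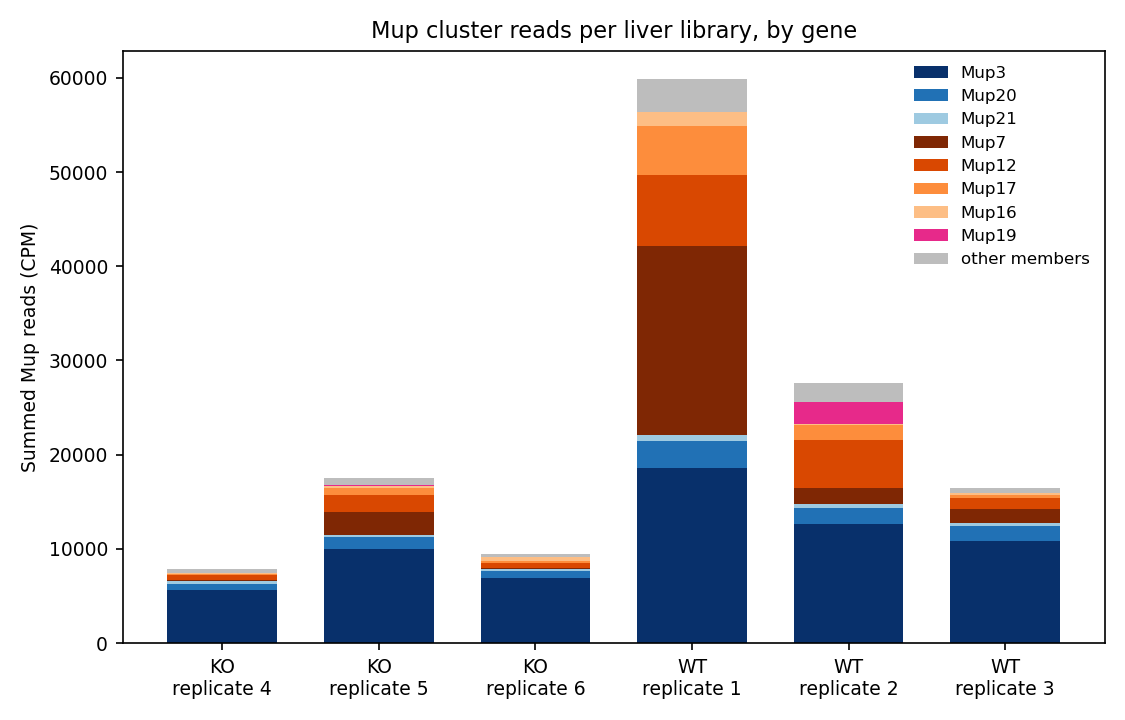
Summed reads of the 47 Mup members in CPM (vertical axis) in each library, KO-labelled left of WT-labelled, stacked by gene. Mup3, Mup20 and Mup21 (blue) are diverged genes and the orange and pink parts are near-identical copies. The total runs between 7840 and 17502 CPM in KO-labelled and between 16500 and 59877 CPM in WT-labelled livers, and Mup7 alone makes 33.4% of it in WT replicate 1.

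Sums of Kupffer, stellate and sinusoidal endothelial markers were higher in KO-labelled livers without overlap, while those of the other marker lists and the mitochondrial share overlapped. The 7 measured hepatocyte markers summed to between 77059 and 80003 CPM in KO-labelled and between 75751 and 105625 CPM in WT-labelled livers, with 6 of the 7 fitted lower. All 6 Kupffer cell markers were fitted higher, at sums of 104 to 177 CPM in KO-labelled against 67.9 to 97.6 CPM in WT-labelled livers. Clec4f, the largest part of that sum, overlapped, with 59.0 CPM in KO replicate 5 and 60.3 CPM in WT replicate 3. Timd4, Marco and Adgre1 overlapped too, while Vsig4 and Cd5l did not. Stellate cell markers (4 of 6 fitted higher) summed to 159 to 350 CPM in KO-labelled and 132 to 151 CPM in WT-labelled livers. Of these, Col3a1, Col1a1 and Des were higher without overlap (log2 2.28, 2.38 and 1.91). Lrat, Reln and Dcn overlapped (log2 −0.03, 0.15 and −0.01). Sinusoidal endothelial markers (4 of 4 fitted higher) summed to 88.5 to 110 CPM in KO-labelled and 71.7 to 78.6 CPM in WT-labelled livers. Each of these 4 overlapped when taken singly. Over all genes tested the groups did not overlap in 13.9%, counting both directions. Biliary markers summed to 7.42 to 9.26 CPM in KO-labelled and 6.13 to 10.9 CPM in WT-labelled livers, and lymphocyte markers to 0.973 to 2.36 CPM in KO-labelled and 1.93 to 2.77 CPM in WT-labelled livers. Mitochondrially encoded genes took 28.0%, 9.08% and 19.8% of counts in KO-labelled replicates 4, 5 and 6 and between 8.16% and 12.7% in WT-labelled ones, with KO replicate 5 inside the WT-labelled range. The part of these in the Mup values was not tested. In bulk tissue, fewer hepatocytes and less Mup RNA per hepatocyte cannot be told apart.

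Of the 47 members 27 had enough counts to be tested, and 0 passed edgeR's quasi-likelihood test at the adjusted threshold of 0.05, where 0.0146% of all 13693 genes tested passed. At an unadjusted p under 0.05, 13 of the 27 members were lower and 0 higher in KO-labelled livers, beside 3.21% of all genes lower and 8.58% in either direction. Fitted values were lower in KO for 22 of the 27, beside 50.9% of all genes, with a median log2 fold change of −1.82 against −0.01 over all genes. When WT replicate 1 was left out 20 of the 27 were lower and 0 passed. In 5 members all KO-labelled libraries lay below all WT-labelled ones, as in 5.73% of all genes. Members may share reads, so these counts are not over independent genes. DESeq2 called 3 members, Mup9, Mup11 and Mup20, all lower, where it called 1.29% of all genes, and 0.468% as lower. It gave no adjusted p for Mup2, Mup4, Mup7, Mup16 and Mup19, and limma-voom called 0 members and 0.0073% of all genes.

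**Figure D2:**
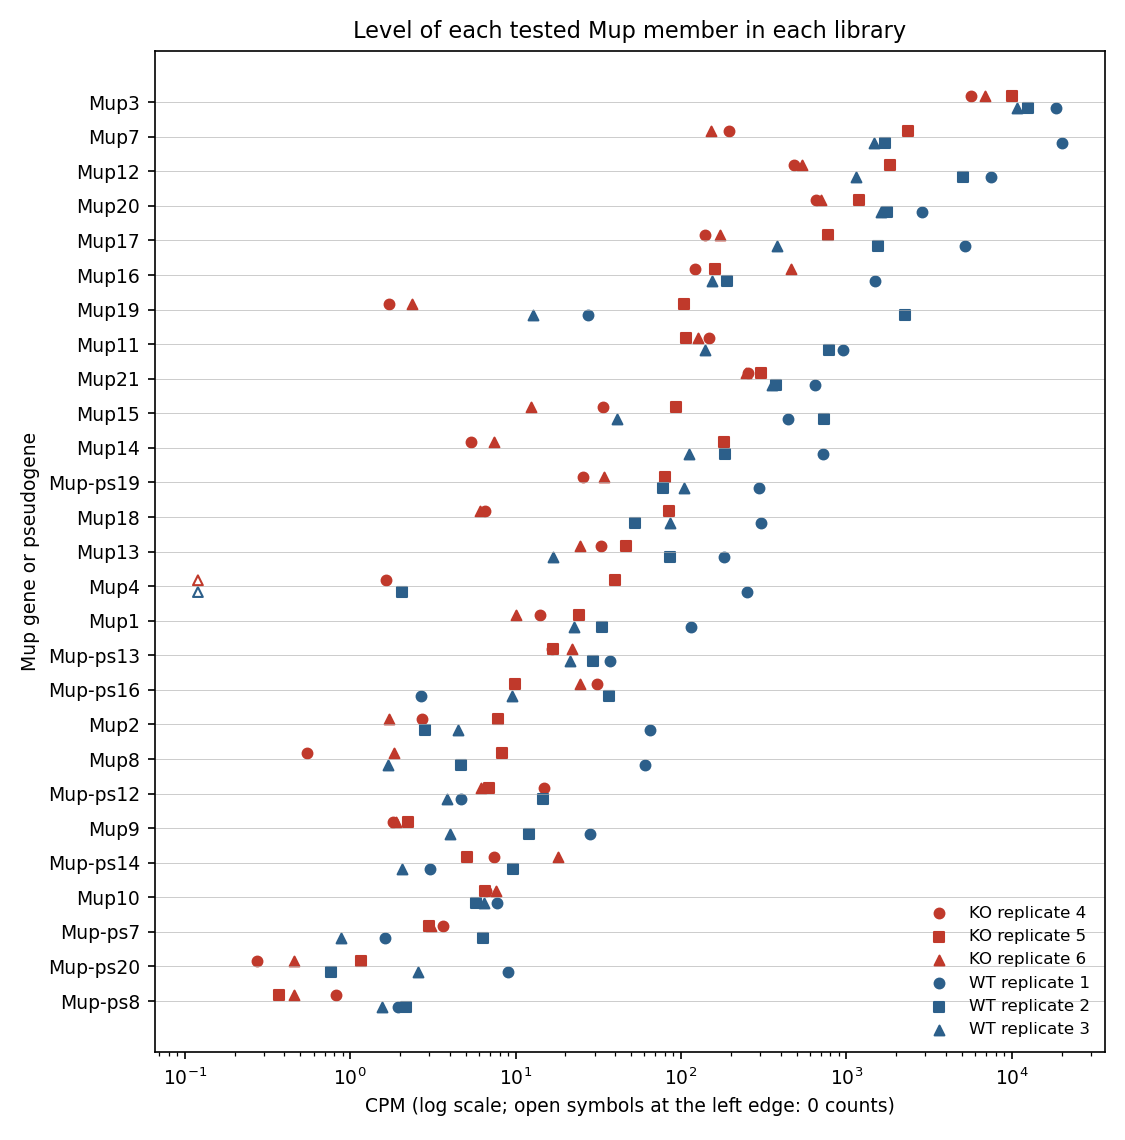
Level in CPM (horizontal, log scale) of the 27 tested members (vertical) in each library, KO-labelled red and drawn above WT-labelled blue, with 1 symbol per replicate. Mup3, Mup20 and Mup21 have all red symbols left of all blue ones, while Mup7, Mup19 and Mup4 spread over more than the distance between the groups.

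Among tested coding members, the diverged genes Mup3, Mup20 and Mup21 varied least within the WT-labelled group but for Mup10, with the highest library 1.73-fold to 1.83-fold above the lowest. Mup3 (chromosome 4, 62083476 to 62087342, minus strand), the most abundant member per length, with a deposited FPKM of 6902 on average in KO-labelled and 13254 in WT-labelled livers, had 5634, 10035 and 6919 CPM in KO-labelled replicates 4, 5 and 6. In WT-labelled replicates 1, 2 and 3 it had 18633, 12595 and 10796 CPM. All KO-labelled values lay below all WT-labelled ones, though KO replicate 5 came close to WT replicate 3. The means were 7529 ± 2263 CPM in KO-labelled and 14008 ± 4105 CPM in WT-labelled livers (SD, n = 3 each), a log2 fold change of −0.90 (SE 0.36, edgeR adjusted p = 0.546). Without WT replicate 1 it was −0.64 and without KO replicate 5 it was −1.163, neither of which passed.

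Mup20 (62050234 to 62054158, minus strand) encodes darcin, the male pheromone that attracts females. It had 656, 1185 and 701 CPM in KO-labelled livers and 2847, 1769 and 1616 CPM in WT-labelled livers, without overlap. On the log2 scale it stood at −1.29 (SE 0.35; edgeR adjusted p = 0.400, DESeq2 adjusted p = 0.0254), and at −0.998 without WT replicate 1, where edgeR's adjusted p was 0.729. Mup21 (62147932 to 62150863, minus strand) had 256, 306 and 246 CPM in KO-labelled and 649, 378 and 356 CPM in WT-labelled livers, again without overlap, as the plot of levels by library shows (log2 −0.77, SE 0.29, edgeR adjusted p = 0.526), and −0.45 without WT replicate 1. For each of these 3 genes a two-sided exact permutation test gave p = 0.1, the smallest that 3 against 3 libraries allow. Groups without overlap always give this value, so the test adds nothing to the lack of overlap.

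The other diverged genes were scarce or erratic. Mup4, known mainly from lacrimal and nasal glands, had 18, 865 and 0 counts in KO-labelled livers and 4051, 32 and 0 counts in WT-labelled livers. A count of 0 allows up to 0.197 CPM in KO replicate 6 and 0.146 CPM in WT replicate 3. The 252 CPM of WT replicate 1 decided its fitted direction, with a log2 fold change of −2.59 (SE 2.33, edgeR adjusted p = 0.727) with that library and 3.86 without it. Mup6 had 2, 6 and 8 counts in KO-labelled and 6, 8 and 6 counts in WT-labelled livers, and Mup5 had 0 counts in all 6.

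Within the WT-labelled group the 15 near-identical coding members varied between 1.34-fold (Mup10) and 179-fold (Mup19) from the lowest to the highest library. Mup7 (60066469 to 60070475, minus strand) had 196, 2360 and 151 CPM in KO-labelled livers and 20007, 1705 and 1467 CPM in WT-labelled livers. KO replicate 5 thus lay above 2 of the 3 WT-labelled libraries, and WT replicate 1 lay 13.6-fold above the lowest of its group. The log2 fold change of −3.10 (SE 1.41, edgeR adjusted p = 0.605) was −0.81 without WT replicate 1 and −5.49 without KO replicate 5. Mup19 had 1.73, 104 and 2.36 CPM in KO-labelled livers and 27.4, 2271 and 12.7 CPM in WT-labelled livers. WT replicate 2 stood far above the other 5 libraries, and without it the log2 fold change was 0.85 in place of −4.41 (SE 2.26, edgeR adjusted p = 0.63).

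Mup12 and Mup17 were the next most counted copies on average. Mup12 had 480, 1845 and 538 CPM in KO-labelled and 7532, 5102 and 1138 CPM in WT-labelled livers (log2 −2.27, SE 0.78, edgeR adjusted p = 0.499; −1.71 without WT replicate 1 and −3.18 without KO replicate 5), with KO replicate 5 above WT replicate 3. Mup17 had 140, 779 and 172 CPM in KO-labelled and 5182, 1555 and 381 CPM in WT-labelled livers, with the same overlap (log2 −2.71, SE 1.01, edgeR adjusted p = 0.526; −1.41 without WT replicate 1 and −3.93 without KO replicate 5). Which copy led differed by library. By reads, the gene behind Mup3 was Mup20 in KO replicates 4 and 6 and in WT replicate 3, Mup7 in KO replicate 5 and Mup12 in WT replicate 2, and in WT replicate 1 Mup7 exceeded Mup3.

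The remaining copies had lower counts. Mup11 had 147, 108 and 126 CPM in KO-labelled and 951, 785 and 140 CPM in WT-labelled livers (log2 −2.30, SE 0.62, edgeR adjusted p = 0.400; DESeq2 adjusted p = 0.0112). Only WT replicate 3 reached into the KO-labelled range. Mup9 had 1.82, 2.22 and 1.90 CPM in KO-labelled and 28.2, 12 and 3.99 CPM in WT-labelled livers, without overlap (log2 −2.88, SE 0.65, edgeR adjusted p = 0.370; DESeq2 adjusted p = 0.00142; −2.00 without WT replicate 1). Mup15 had 33.9, 93.8 and 12.5 CPM in KO-labelled and 446, 736 and 41.1 CPM in WT-labelled livers, with overlap (log2 −3.12, SE 1.05; −4.14 without KO replicate 5 and −2.39 without WT replicate 2).

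Mup1, reported in mice as a circulating signal that lowers glucose production, had 14.0, 24.1 and 10.1 CPM in KO-labelled and 116, 33.1 and 22.6 CPM in WT-labelled livers (log2 −1.82, SE 0.63, edgeR adjusted p = 0.502; −0.79 without WT replicate 1). Mup14 had 5.36, 181 and 7.42 CPM in KO-labelled and 726, 183 and 111 CPM in WT-labelled livers (log2 −2.39, SE 1.35; −1.18 without WT replicate 1 and −5.73 without KO replicate 5). Mup18 had 6.54, 84.9 and 6.11 CPM in KO-labelled and 304, 52.8 and 86.4 CPM in WT-labelled livers (log2 −2.18, SE 1.11; −1.09 without WT replicate 1 and −4.55 without KO replicate 5). In these 3 genes KO replicate 5 lay inside the WT-labelled range, and KO replicates 4 and 6 lay below it.

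Mup13 had 33, 46.7 and 24.4 CPM in KO-labelled and 183, 86.3 and 16.8 CPM in WT-labelled livers (log2 −1.46, SE 0.71; −0.57 without WT replicate 1). Mup16 had 122, 160 and 462 CPM in KO-labelled and 1499, 190 and 153 CPM in WT-labelled livers, and its log2 fold change of −1.31 (SE 0.92) was 0.53 without WT replicate 1. Mup2 had 2.72, 7.83 and 1.71 CPM in KO-labelled and 65.0, 2.82 and 4.47 CPM in WT-labelled livers, and Mup8 had 0.545, 8.24 and 1.84 CPM in KO-labelled and 60.3, 4.67 and 1.70 CPM in WT-labelled livers. For both the fitted value was below 0 (log2 −2.53, SE 1.18 for Mup2, and −2.59, SE 1.35 for Mup8) and became 0.18 and 0.20 without WT replicate 1. Mup10, the coding member fitted closest to 0, had 6.63, 6.53 and 7.62 CPM in KO-labelled and 7.73, 5.76 and 6.47 CPM in WT-labelled livers (log2 0.06, SE 0.24). The plot of fold changes along the cluster shows how far single copies move when WT replicate 1 is left out.

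**Figure D3:**
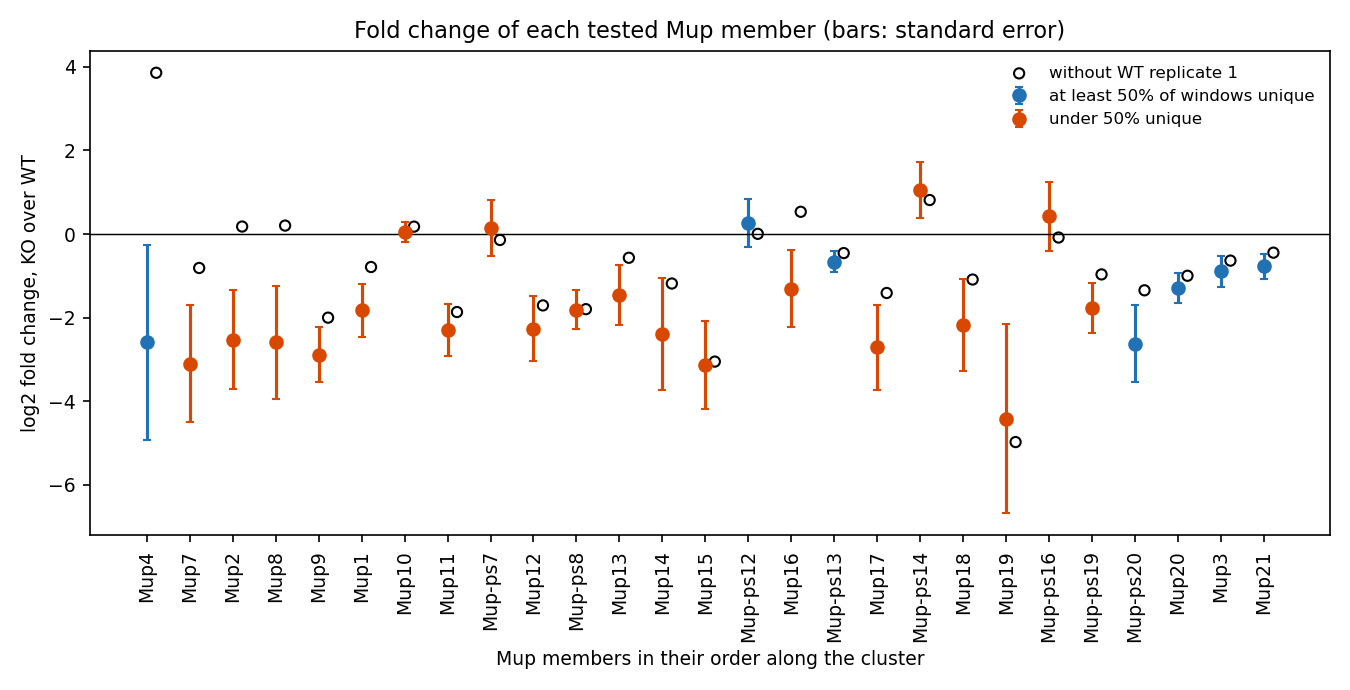
Fitted log2 fold change of KO over WT (vertical axis, bars are the standard error) for the 27 tested members in their order along the cluster. Blue members have at least 50% and orange members under 50% of their 100-base windows unique, and open circles give the value without WT replicate 1. With all 6 libraries 22 members lie below 0, and 20 of the 27 do when WT replicate 1 is left out.

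Members were also summed by how much of their sequence is unique. The 19 members with at least 50% of windows unique summed to 6580, 11592 and 7898 CPM in KO-labelled and 22434, 14789 and 12796 CPM in WT-labelled livers, without overlap (log2 −0.94, SE 0.36; −0.67 without WT replicate 1). Mup3 made 83.1% to 87.6% of that sum in each library, and the 18 members left without it summed to 946, 1557 and 979 CPM in KO-labelled and 3801, 2194 and 2000.3 CPM in WT-labelled livers (log2 −1.20, SE 0.35). Most of this remainder was Mup20, at 656 to 1185 CPM in KO-labelled and 1616 to 2847 CPM in WT-labelled livers, with Mup21 next. The other 28 summed to 1261, 5909 and 1607 CPM in KO-labelled and 37443, 12857 and 3704 CPM in WT-labelled livers, with KO replicate 5 above WT replicate 3 (log2 −2.62, SE 0.92; −1.50 without WT replicate 1). Single members did not all follow these sums, since Mup4, Mup-ps12, Mup-ps13 and Mup-ps20 of the 19 overlapped between the groups and Mup9 and Mup-ps8 of the 28 did not. The log2 ratio of the 28 to the 19 was −2.38, −0.97 and −2.30 in KO-labelled livers and 0.74, −0.20 and −1.79 in WT-labelled livers, so that the groups overlapped. With windows of 50 bases 12 members passed the 50% limit (log2 −0.90, SE 0.36), and with 150 bases 24 did (log2 −1.07, SE 0.40). The members left over stood at −2.41 (SE 0.81) with 50 bases and −2.63 (SE 0.91) with 150 bases. Gm21320, outside the name rule, had 270.5, 2218 and 599.9 CPM in KO-labelled and 5393, 781 and 1568 CPM in WT-labelled livers (log2 −1.33, SE 0.90), and adding it to the cluster sum gave a log2 fold change of −1.56.

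Pseudogenes took between 0.711% and 1.31% of cluster reads in KO-labelled and between 0.603% and 0.893% in WT-labelled livers, with overlap. In CPM their sum was 103, 124 and 114 in KO-labelled and 361, 179 and 147 in WT-labelled livers, so that all KO-labelled sums lay below all WT-labelled ones. Of the 26 pseudogenes 8 were tested, 4 fitted lower and 4 higher. Mup-ps19, the most counted, had 25.4, 80.1 and 34.3 CPM in KO-labelled and 296, 78.2 and 104 CPM in WT-labelled livers (log2 −1.77, SE 0.61, edgeR adjusted p = 0.499; −0.97 without WT replicate 1 and −2.42 without KO replicate 5). Mup-ps20 had 0.272, 1.158 and 0.46 CPM in KO-labelled and 9.04, 0.768 and 2.58 CPM in WT-labelled livers (log2 −2.62, SE 0.92; −1.35 without WT replicate 1 and −3.44 without KO replicate 5). Mup-ps13 had 16.7, 16.8 and 22 CPM in KO-labelled and 37.1, 29.3 and 21.4 CPM in WT-labelled livers (log2 −0.66, SE 0.26), and Mup-ps8 had 0.817, 0.371 and 0.46 CPM in KO-labelled and 1.93, 2.18 and 1.56 CPM in WT-labelled livers (log2 −1.81, SE 0.47). Among the 8 tested pseudogenes, only Mup-ps8 showed no overlap between the groups; it has no unique 100-base window (0%) and rests on 9, 8 and 7 counts in the KO-labelled libraries.

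The other tested pseudogenes were fitted above 0. Mup-ps14 had 7.45, 5.09 and 17.9 CPM in KO-labelled and 3.05, 9.60 and 2.04 CPM in WT-labelled livers (log2 1.06, SE 0.66). Mup-ps16 had 30.9, 9.91 and 24.4 CPM in KO-labelled and 2.68, 36.5 and 9.48 CPM in WT-labelled livers (log2 0.42, SE 0.82). Mup-ps12 had 14.8, 6.95 and 6.17 CPM in KO-labelled and 4.67, 14.7 and 3.84 CPM in WT-labelled livers (log2 0.26, SE 0.57), and Mup-ps7 had 3.63, 3.01 and 3.09 CPM in KO-labelled and 1.62, 6.34 and 0.875 CPM in WT-labelled livers (log2 0.15, SE 0.67). In all 4 WT replicate 2 was the highest WT-labelled library, unlike in most coding members, and the groups overlapped. The 20 members not tested comprised 7 with no count in any library, 3 with 1 to 9 counts in all, and 10 with 16 to 41 counts, namely Mup6, Mup-ps1, Mup-ps2, Mup-ps4, Mup-ps6, Mup-ps9, Mup-ps10, Mup-ps15, Mup-ps18 and Mup-ps21. In 2 of these 10, singled out after their values were seen, the groups did not overlap, in opposite directions. Over all genes tested the groups did not overlap in 13.9%, counting both directions. That share was not computed for genes too scarce to test, so the 2 are not read as a result about the members. Mup-ps2 had 10, 5 and 19 counts in KO-labelled and 1, 1 and 2 counts in WT-labelled livers, and Mup-ps21 had 0, 1 and 1 counts in KO-labelled and 4, 2 and 8 counts in WT-labelled livers.

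Neither genes of growth hormone signalling nor transcription factors of sex-biased or Mup genes gave a call. The growth hormone list mixes genes that pass the signal on with genes that dampen it, so its median does not measure the pathway's activity. Of 13 genes of growth hormone signalling 7 were fitted lower and 6 higher, with a median log2 fold change of −0.09 and 0 past the threshold. Cish, a STAT5 target that dampens the pathway, had 8.63, 17 and 1.97 CPM in KO-labelled and 34.2, 42.0 and 20.3 CPM in WT-labelled livers, without overlap (log2 −1.79, SE 0.65, edgeR adjusted p = 0.52). Stat5a had 25.3, 15.2 and 26.5 CPM in KO-labelled and 9.35, 18.2 and 11.4 CPM in WT-labelled livers, with overlap (log2 0.78, SE 0.33). Chosen for their role after values were seen, Ghr, the growth hormone receptor, stood at 339 ± 102 CPM in KO-labelled and 464 ± 81.6 CPM in WT-labelled livers (SD, n = 3 each; log2 −0.45, SE 0.29), and Stat5b at a log2 fold change of 0.08 (SE 0.19). Likewise chosen, Igf1 was fitted higher (log2 0.35, SE 0.34) and Socs2 lower (log2 −0.86, SE 0.59), both with overlap.

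Of 15 transcription factors of sex-biased or Mup genes 12 were fitted lower and 3 higher, with a median of −0.07 and 0 past the threshold. Onecut1, a hepatocyte factor, had 2.54, 8.38 and 2.69 CPM in KO-labelled and 22.7, 18.8 and 17.5 CPM in WT-labelled livers, without overlap (log2 −2.08, SE 0.47, edgeR adjusted p = 0.37). Trim24, a nuclear receptor cofactor, had 55.3, 28.9 and 71.0 CPM in KO-labelled and 21.6, 29.1 and 21.6 CPM in WT-labelled livers, with overlap (log2 1.10, SE 0.33, edgeR adjusted p = 0.435). Zhx2, reported in mice to activate Mup genes and chosen after its values were seen, had 4.36, 8.10 and 3.15 CPM in KO-labelled and 11.7, 4.55 and 7.98 CPM in WT-labelled livers, with overlap (log2 −0.62, SE 0.45).

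Male-biased liver genes outside the cluster were mostly fitted lower as well. Of 16 tested 15 were fitted lower, with a median of −1.39 (−0.90 without WT replicate 1), and 0 passed the threshold. Their summed level was 2463, 3441 and 2535 CPM in KO-labelled and 18710, 4780 and 10587 CPM in WT-labelled livers, without overlap. KO replicate 5 was the highest KO-labelled and WT replicate 1 the highest WT-labelled library, as in the cluster, whereas the lowest WT-labelled library was replicate 2 here and replicate 3 in the cluster. In WT replicates 1 and 3 much of the sum came from Serpina1e, which had 10352 and 6674 CPM there and 1165 CPM in WT replicate 2. In KO-labelled livers Serpina1e had 273, 563 and 130 CPM. Cyp2d9 was the largest part there and in WT replicate 2, with 1108, 1183 and 1145 CPM in KO-labelled livers and 1230 CPM in WT replicate 2. Its groups overlapped (log2 −0.16, SE 0.38). The 2 genes of this list with the smallest p were Cyp4a12b, a fatty acid hydroxylase, and Hsd3b5, a steroid dehydrogenase. They stood at log2 fold changes of −2.40 (SE 0.28) and −3.73 (SE 0.61). Cyp4a12a, also in the list, stood at −0.77 (SE 0.33), with overlap, and whether it shares reads with Cyp4a12b was not examined. Of 16 female-biased genes tested 13 were fitted higher and 3 lower, with a median of 0.82. Cyp2b9, a cytochrome P450, passed the threshold as higher (log2 4.34, SE 0.37, edgeR adjusted p = 0.0298). It lost the call when WT replicate 1, 2 or 3 or KO replicate 4 or 6 was left out, at log2 fold changes of 4.02 to 4.51 and edgeR adjusted p-values of 0.0578 to 0.265, and kept it without KO replicate 5 (edgeR adjusted p = 0.0094).

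Genes beside the cluster and other lipocalins were split in direction. Of 23 tested genes within 1 Mb of the members, Gm21320 included, 11 were fitted higher and 12 lower, with a median of −0.06 and 0 past the threshold. The 2 with the smallest p were Cdc26, a subunit of the anaphase-promoting complex (log2 −1.005, SE 0.35), and Pole3, a subunit of DNA polymerase epsilon (log2 0.52, SE 0.20). Of 9 other lipocalins tested 6 were fitted higher and 3 lower, with a median of 0.11. Orm2 and Orm3, acute phase glycoproteins, stood at log2 fold changes of 1.31 (SE 0.23) and 1.73 (SE 0.51), without overlap between the groups and without passing the threshold. A difference between these lists and the Mup members was not tested.

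**Figure D4:**
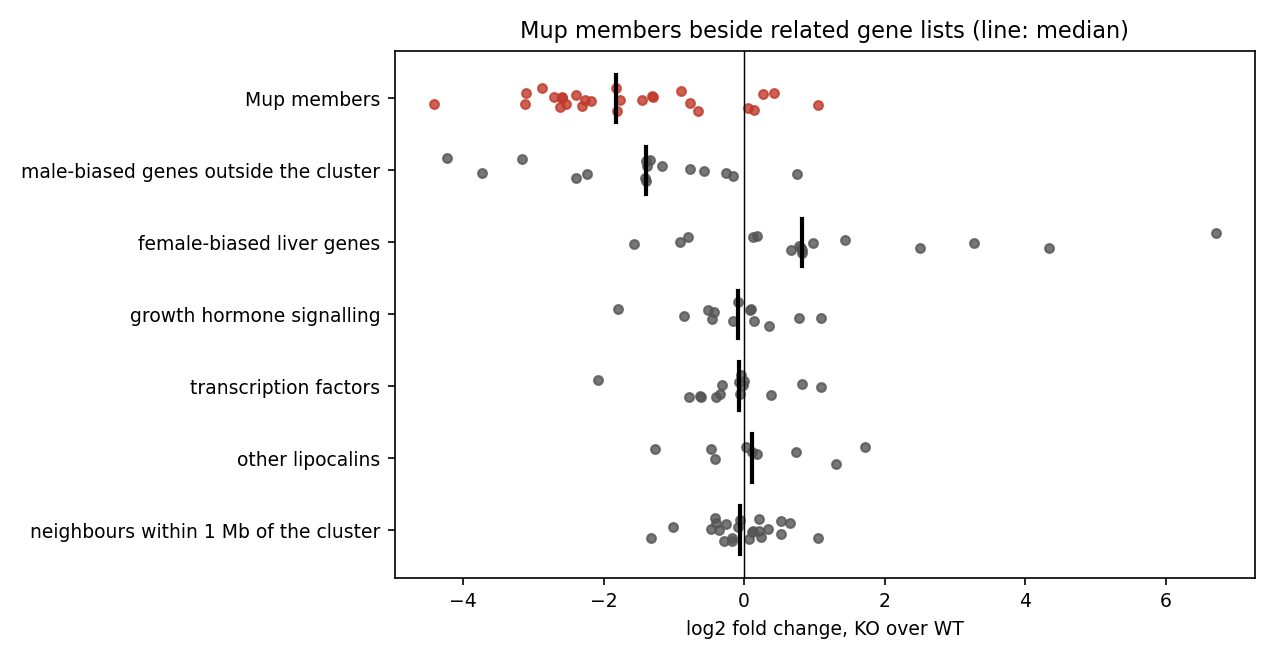
Fitted log2 fold change of KO over WT (horizontal axis) of each tested gene of the Mup cluster (red, top) and of 6 other lists (grey), with the list's median as a black line. Medians lie at −1.82 for the Mup members, −1.39 for male-biased genes, 0.82 for female-biased genes and between −0.09 and 0.11 for the other 4 lists.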

How the data were processed

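Libraries were made from total RNA of frozen liver with a TruSeq kit, per the labels' protocols. The authors' deposited table of raw counts per gene was the base of every test. Per the submitters' processing notes the tools included DESeq2 1.16.1, featureCounts 1.5.0-p3 and HISAT2 2.0.5, with build mm10, without roles or settings, and neither strand nor the handling of multi-mapping reads is given in the sources used here. The authors' deposited FPKM values were used for levels per length and as an alternative.

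Counts were tested over all 13693 genes kept by filterByExpr with edgeR 4.0.16 in R 4.3.3 (TMM scaling, quasi-likelihood test, Benjamini-Hochberg adjustment at 0.05), and each SE is the absolute log2 value divided by the root of the F statistic. The cluster sum replaced the Mup rows in the same fit and was given no p. Replicate numbers run from 1 to 6 without repeats, so libraries were not paired. No pair of libraries was a duplicate (lowest chi-square per degree of freedom 42.3). Groups come from the sample titles. The edgeR test was run on simulated counts as a check of the code, and no result rests on its outcome, which is not reported here. With 3 libraries a group, a gene without a call may still differ. Alternatives were DESeq2 1.42.0, limma 3.58.1 (voom, and log2 FPKM with pseudocounts), other scalings and filters, and libraries left out. Windows and coding identity come from GENCODE M21 transcripts, whose positions match the count table for all 47 members, and coding identity stood in for the planned protein identity. Identities were aligned with Biopython 1.88. Every tested member was named, and of each other list its called genes or otherwise the 2 with the smallest p. Members and lists were chosen with earlier results of these data known.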

Additional observations from a re-analysis of the deposited data

How the results depend on the processing

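The cluster sum was lower in KO-labelled livers under all 26 alternatives, with log2 fold changes of −2.01 to −0.93 when 1 library was left out and −0.71 without WT replicate 1 and KO replicate 4 together. It was −2.62 over members with under 50% of windows unique, which holds fewer members by construction, and −2.41 and −2.63 when windows of 50 and 150 bases set that class. Counts of called members were 0 except under DESeq2 (3: Mup9, Mup11 and Mup20) and without a low-count filter (2: Mup9 and Mup11). Calls over all genes numbered 2, against 176 with DESeq2, 61 without the low-count filter, 1 with limma-voom, 1 with library size alone, 0 to 1 with 1 library left out and 0 without WT replicate 1 and KO replicate 4. Of 459 values of single members under the alternatives 435 kept direction and side of the threshold, 5 became calls and 19 changed sign. With 1 library left out, log2 fold changes ran from −3.46 to 0.18 for Mup2, from −6.83 to 3.86 for Mup4, from −4.16 to 0.20 for Mup8, from −0.040 to 0.18 for Mup10, from −2.13 to 0.53 for Mup16, from −8.54 to 0.85 for Mup19, from −0.32 to 1.37 for Mup-ps7, from −0.23 to 1.11 for Mup-ps12, from −0.084 to 1.81 for Mup-ps16. Without WT replicate 1 and KO replicate 4 they were 0.40 for Mup2, 4.37 for Mup4, 0.68 for Mup8, 0.86 for Mup16, −0.23 for Mup-ps7, −0.49 for Mup-ps12 and −0.42 for Mup-ps16. The cause was not tested. List medians ran from −1.67 to −0.74 for male-biased genes, 0.41 to 1.17 for female-biased genes, −0.13 to −0.03 for growth hormone signalling, −0.32 to −0.07 for transcription factors and −0.09 to 0.10 for neighbours. No paired analysis was possible because the groups share no replicate number. The sums with Gm21320, without Mup3 (log2 −2.34) and by windows of 50 and 150 bases were chosen after seeing the data. With 3 libraries a group and copies that share reads, the wide errors of Mup4, Mup7 and Mup19 limit what single copies can show.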

Other observations

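Of the 26 Mup pseudogenes 20 are annotated on the plus strand, opposite to 20 of the 21 protein-coding members. Mup-ps16 overlaps Gm13775, on its own strand, a noncoding transcript whose reads cannot be told apart from those of the pseudogene where exons overlap. Gm13775 had 63.7, 17.6 and 67.2 CPM in KO-labelled livers and 10.8, 47.5 and 13.1 CPM in WT-labelled livers, with WT replicate 2 inside the KO-labelled range (log2 1.05, SE 0.67, edgeR adjusted p = 0.666). Mup-ps16 had the same highest WT-labelled library. Mup-ps6 likewise overlaps the noncoding transcript Gm13773.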
